A study of Mus musculus with 3 samples.

Results

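Cytosolic chaperones and heat shock genes were followed through the single-cell RNA sequencing of mouse flexor digitorum longus (FDL) tendon. The 35 members were fixed by gene symbol, and all 35 were found among the 32285 genes listed for each library. They were grouped as 11 heat-inducible chaperones and co-chaperones, 16 constitutive ones, 6 tissue-restricted ones and the 2 heat shock factors Hsf1 and Hsf2. Hspa9, Hspd1 and Hspe1, placed in the constitutive group, encode chaperones of mitochondria.

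The study depleted Scleraxis (Scx)-lineage tendon cells with diphtheria toxin (DT) and set the outcome beside natural ageing. Each of 3 libraries held cells from 16 pooled tendons, so there was 1 library per group and no replicate check of any difference. The 6 M WT library came from Scx-Cre-; DTR F/+ mice, which carried the DT receptor allele without Cre and received 5 DT injections. The 6 M DTR library came from Scx-Cre+; DTR F/+ mice given the same 5 injections, in which the Scx promoter drives Cre, so that the receptor is switched on in every cell with a history of Scx expression. The 21 M B6 library came from untreated C57BL/6J mice at 21 months, with neither allele nor DT. The labels give 3 months for both DT-injected groups, which were harvested at 6 months. Tendons of 6 M WT were digested for 120 min and those of 6 M DTR and 21 M B6 for 90 min. Age, alleles, DT and mouse cohort cannot be told apart in comparisons of 21 M B6 with the others, and digestion time cannot be told apart from group in comparisons with 6 M WT.

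Molecular chaperones bind unfolded protein and help it fold. The Hsp70 proteins work with J-domain partners that deliver clients and with nucleotide exchange factors that release them, and Hsp90 acts later on a narrower set of clients. Cells keep constitutive forms (Hspa8, Hsp90ab1) at high level at all times, and stress such as heat makes Hsf1 switch on the inducible forms (Hspa1a, Hspa1b, Hsp90aa1) within minutes to hours. Small heat shock proteins such as Hspb1 and Cryab hold unfolded protein without using ATP, and several are abundant in muscle.

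Counts were unique molecular identifiers (UMIs), each standing for 1 captured 3′ end of a transcript. The deposited matrices held 15536 barcodes and 148149903 UMIs in 6 M WT, 16099 and 123918145 in 6 M DTR, and 12273 and 92707026 in 21 M B6. The filter on genes and mitochondrial counts left 8357, 6554 and 4798 cells, with median depths of 12328 to 13008 UMIs. Barcodes over 10% mitochondrial counts were 27.6%, 43.1% and 56.5% of each library, and the cells kept from 21 M B6 had a median of 5.09% against 2.83% and 3.00%. Cells were gated on marker genes into 9 classes. Tenocyte-like cells made up 66.9%, 46.9% and 22.9% of the kept cells (5593, 3072 and 1100 cells). The next classes by size were epitenon-like (639, 688 and 1711 cells) and macrophage-like (579, 1129 and 498 cells). Only 6, 12 and 5 myofibre-like cells were found, and these were described without ratios. Pairs of libraries shared 13 to 15 barcodes among their kept cells. The part of the digestion time in any result was not tested. Xist and Y-linked genes called 61.1%, 32.7% and 45.1% of the kept cells female and 23.8%, 47.3% and 35.7% male. Values by sex and by mitochondrial share are given for some of the results that they move.

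The inducible response depends on promoter sequence, and the 250 bases before the transcript start were therefore read for the members from RefSeq (GRCm38.p6), where 28 of 35 had an entry (all but Cryab, Hsf1, Hsp90aa1, Hsp90ab1, Hspa8, Hspa9 and Hspb2). The Hsf1 binding element is built from repeated GAA units in alternating orientation. A match to 3 units (GAANNTTCNNGAA or TTCNNGAANNTTC) stood in the window of 3 of 28 members, Hspd1, Hspe1 and Dnajb6, against 0.514% of 27025 symbols; Hspd1 and Hspe1 face away from each other and share the same match. A match to 2 units (GAANNTTC or TTCNNGAA, each its own reverse complement, and contained in every 3-unit match) stood in 12 of 28 members (42.9%) and in 14.5% of all symbols. By group it stood in 5 of 10 heat-inducible members, 6 of 13 constitutive ones and 1 of 4 tissue-restricted ones. Windows of 4 members are printed as examples: the near-identical pair Hspa1a and Hspa1b, the small heat shock gene Hspb1 with 2 matches, and Hspa4 without one. These windows do not stand for their groups. The heat-inducible Dnajb1, Bag3, Chordc1, Ahsa1 and Hspa4l had no 2-unit match. Constitutive Dnaja1, Cct2 and Cct5 had one, as did the members with a 3-unit match. Capitals mark the 2-unit matches, all sequences run 5′ to 3′ on the strand of the gene, and the last base is the one before the transcript start. Hspa1a lies at chr17:34972157-34972406 (minus strand), Hspa1b at chr17:34959239-34959488 (minus), Hspb1 at chr5:135887669-135887918 (plus) and Hspa4 at chr11:53300480-53300729 (minus).
Hspa1a: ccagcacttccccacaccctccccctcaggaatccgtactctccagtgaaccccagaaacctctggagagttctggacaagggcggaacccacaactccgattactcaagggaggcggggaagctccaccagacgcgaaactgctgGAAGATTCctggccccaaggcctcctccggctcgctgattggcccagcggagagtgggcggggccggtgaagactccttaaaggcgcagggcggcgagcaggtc
Hspa1b: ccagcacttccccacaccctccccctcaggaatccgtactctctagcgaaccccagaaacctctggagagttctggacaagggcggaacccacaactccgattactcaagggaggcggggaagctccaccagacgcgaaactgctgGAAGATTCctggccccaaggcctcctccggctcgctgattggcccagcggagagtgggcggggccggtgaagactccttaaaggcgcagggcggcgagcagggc
Hspb1: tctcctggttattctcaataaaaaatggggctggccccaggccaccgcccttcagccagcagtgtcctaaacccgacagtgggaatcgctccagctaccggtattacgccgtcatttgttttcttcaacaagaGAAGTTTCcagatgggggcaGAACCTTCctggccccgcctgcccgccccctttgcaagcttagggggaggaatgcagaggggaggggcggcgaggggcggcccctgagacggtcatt
Hspa4: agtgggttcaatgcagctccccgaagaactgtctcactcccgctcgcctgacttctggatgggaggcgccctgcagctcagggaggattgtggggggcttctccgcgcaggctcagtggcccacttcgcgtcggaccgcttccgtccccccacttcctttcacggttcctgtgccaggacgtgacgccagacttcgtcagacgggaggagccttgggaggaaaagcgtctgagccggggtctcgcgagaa
The Hspa1a and Hspa1b windows were identical at 247 of 250 bases (98.8%), and in both the match lay 97 to 104 bases before the start. Both matches of Hspb1 lay between 90 and 117 bases before it. A match describes letters in a window and is neither a bound site nor a cause, and the genome build behind the deposited counts is not given in the sources used here.

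Levels are given as CPM (counts of a gene scaled to the same total in each class and library), from UMIs summed over the cells of a class in a library and divided by all its gene UMIs. Values that come in sets of 3 stand in the order of the DT-injected controls (6 M WT), the depleted mice (6 M DTR) and the aged mice (21 M B6). Ratios carry exact 95% intervals, which cover counting error only, and a gene was compared where it reached 5 CPM in at least 1 of the libraries set side by side. The stress-induced Hsp70 genes stood furthest apart. In tenocyte-like cells Hspa1a was at 70.0, 80.0 and 944 CPM, and Hspa1b at 64.9, 74.4 and 871. Both genes were far higher in 21 M B6, at 13.5 times the 6 M WT level for Hspa1a (13.1 to 13.9) and 13.4 times for Hspa1b (13.0 to 13.9). The order of the DT-injected libraries differed between cells called male and cells called female. Such cells come from different mice of a pool, so sex cannot be told apart from individual mice. The log2 ratio of 6 M DTR to 6 M WT was 0.19 for Hspa1a and 0.20 for Hspa1b over all tenocyte-like cells, but -0.30 and -0.24 in cells called male and 0.61 and 0.62, past 1.5-fold, in cells called female. That of 21 M B6 to 6 M WT kept its direction, at 3.73 for Hspa1a in cells called male and 3.23 in cells called female. In epitenon-like cells Hspa1a was at 96.4, 111 and 749 CPM and Hspa1b at 156, 170.2 and 894, which gave 7.77 (7.29 to 8.29) and 5.75 (5.46 to 6.05) times 6 M WT. Macrophage-like cells started from a higher Hspa1a level (318, 257 and 1162 CPM) and showed a smaller ratio, 3.65 (3.50 to 3.81), while Hspa1b stood at 164, 141 and 837 CPM, a ratio of 5.09 (4.81 to 5.38). Because the coding sequences of Hspa1a and Hspa1b are nearly the same, reads may be split or lost between them and the sum of both is the safer quantity. The 3′ ends of the 2 transcripts, from which the counts come, were not compared here.

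Genes that work beside Hsp70 and Hsp90 followed in the same direction. Hsph1, an Hsp110 protein that releases nucleotide from Hsp70, was at 21.2, 15.8 and 125 CPM in tenocyte-like cells, 5.87 times 6 M WT (5.48 to 6.29) in the aged library. The ratio was 5.55 (4.95 to 6.24) in epitenon-like and 2.87 (2.42 to 3.42) in macrophage-like cells. Hsp90aa1, the inducible Hsp90, reached the highest level of the heat-inducible group in all 3 classes. It was at 495, 389.6 and 1527 CPM in tenocyte-like, 576, 510.3 and 1574 in epitenon-like, and 929, 793 and 1861 in macrophage-like cells. The ratios to 6 M WT were 3.09 (3.03 to 3.14), 2.73 (2.66 to 2.81) and 2.002 (1.95 to 2.06).

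Dnajb1, the J-domain partner of inducible Hsp70, was at 49.1, 51.1 and 132 CPM in tenocyte-like cells, 78.4, 91.3 and 215 in epitenon-like cells, and 76.0, 73.9 and 150.2 in macrophage-like cells. In each class 21 M B6 stood above both other libraries, with ratios to 6 M WT of 2.70 (2.55 to 2.86), 2.74 (2.55 to 2.96) and 1.98 (1.80 to 2.17). Its relative Dnajb4 was less different. The ratio of Dnajb4 was 1.46 (1.36 to 1.57) in tenocyte-like cells, at 48.1, 62.7 and 70.4 CPM, and 1.01 (0.954 to 1.07) and 1.05 (0.955 to 1.16) in epitenon-like and macrophage-like cells.

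Hspb1, a small heat shock protein that also binds actin, was at 200.1, 181 and 383 CPM in tenocyte-like cells and 176, 211 and 577 in epitenon-like cells, 1.91 (1.86 to 1.98) and 3.27 (3.12 to 3.44) times 6 M WT in 21 M B6. Macrophage-like cells held little of it (27.8, 48.6 and 46.6 CPM), with both 6 M DTR and 21 M B6 above 6 M WT, by 1.75 (1.52 to 2.02) and 1.68 (1.42 to 1.97). Bag3, which couples Hsp70 to small heat shock proteins, was at 105, 93.7 and 238 CPM in tenocyte-like, 140.5, 120 and 315 in epitenon-like, and 90.9, 81.5 and 119 in macrophage-like cells. The ratio of 21 M B6 to 6 M WT was 2.27 (2.18 to 2.36), 2.25 (2.12 to 2.38) and 1.31 (1.19 to 1.44), past 1.5-fold in the first 2 classes.

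The Hsp90 co-chaperones of the group stayed under 1.5-fold. Chordc1 was at 35.8, 27.9 and 49.0 CPM in tenocyte-like cells, with ratios of 21 M B6 to 6 M WT of 1.37 (1.26 to 1.49), 1.45 (1.28 to 1.64) and 1.23 (1.05 to 1.43) in the 3 classes. Ahsa1, which speeds ATP hydrolysis by Hsp90, was at 51.4, 46.5 and 53.0 CPM, and its ratios were 1.03 (0.952 to 1.12), 1.19 (1.08 to 1.31) and 1.08 (0.938 to 1.25). Hspa4l, a further Hsp110 protein, went the other way. It was at 32.5, 42.9 and 25.5 CPM in tenocyte-like, 42.9, 57.0 and 28.1 in epitenon-like, and 53.3, 46.7 and 24.9 in macrophage-like cells, at ratios of 0.786 (0.700 to 0.880), 0.655 (0.581 to 0.740) and 0.467 (0.392 to 0.555).

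Read together by class, 10 of the 34 members compared in tenocyte-like cells were at least 1.5-fold higher in 21 M B6 than in 6 M WT, where 7.15% of all 9318 genes compared were, and 0 were 1.5-fold lower, against 13.7%. Heat-inducible members made up 7 of those 10, and Hspa8, Dnaja1 and Hspb8 the rest. Hspb6 was under the 5 CPM limit in this comparison, Hspb6 and Hspb7 in epitenon-like cells, and Hspb2 and Hspb6 in macrophage-like cells. In epitenon-like cells 10 of 33 were higher (background 4.56%) and 1, Hspa4l, was lower (10.8%). In macrophage-like cells 9 of 33 were higher (9.22%) and 1, again Hspa4l, was lower (10.7%). One of the 9, Hspb8, was compared only because 21 M B6 reached 5 CPM, so that its direction was set by the limit, and among the 32 members at 5 CPM in both libraries 8 were higher, against 6.7% of 8422 genes. The median log2 ratio of the 11 heat-inducible members was 1.18 in tenocyte-like, 1.45 in epitenon-like and 0.74 in macrophage-like cells, with 10 of 11 above 0 in each class, against medians over all genes of -0.24, -0.25 and -0.08. Because the median gene of 21 M B6 stood below 6 M WT on the CPM scale, a ratio of 1 lies above the typical gene in the tenocyte-like and epitenon-like comparisons.

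**Figure D1:**
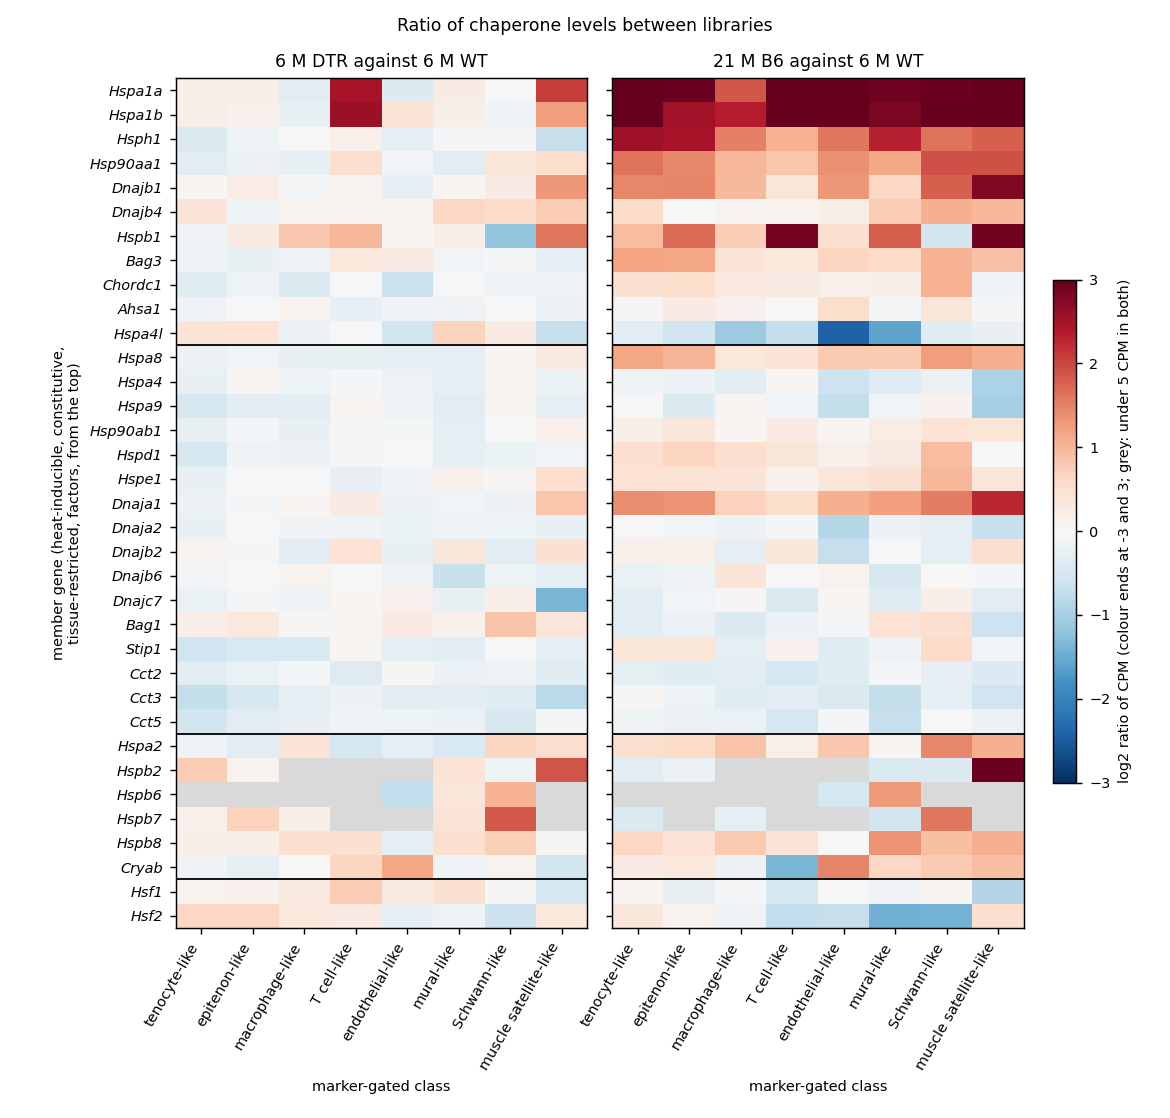
Log2 ratio of CPM for each of the 35 members (down) in 8 marker-gated classes (across), for 6 M DTR against 6 M WT (left) and 21 M B6 against 6 M WT (right), which share the 6 M WT library; black lines part the 4 groups, and grey marks members under 5 CPM in both libraries. Hspa1a, Hspa1b, Hsph1 and Hsp90aa1 are higher in 21 M B6 in all 8 classes, and Hspa4l is lower in all 8. The median over all genes is also lower in all 8.

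By median ratio the constitutive group was nearer to 6 M WT than the heat-inducible group. Of the constitutive members 3 passed 1.5-fold in at least 1 of the 3 classes: Hspa8, Dnaja1 and, in epitenon-like cells, Hspd1. By class, 2 of 16 were higher in tenocyte-like (7.15% of all genes), 3 of 16 in epitenon-like (4.56%) and 1 of 16 in macrophage-like cells (9.22%). In each class 0 were lower, against 13.7%, 10.8% and 10.7% of all genes. The constitutive median log2 ratio of 21 M B6 to 6 M WT was 0.02 in tenocyte-like, -0.08 in epitenon-like and -0.07 in macrophage-like cells over 16 members. Medians over all genes were -0.24, -0.25 and -0.08. A median gives each member equal weight, and the abundant members Hspa8, Hsp90ab1 and Dnaja1 were all higher in 21 M B6. Hspa8, the Hsp70 that all cells make, was at 871, 774 and 1956 CPM in tenocyte-like cells, 1159, 1092 and 2365 in epitenon-like cells, and 1823, 1555 and 2267 in macrophage-like cells. Its ratios were 2.24 (2.21 to 2.28), 2.04 (2.002 to 2.08) and 1.24 (1.22 to 1.27). Dnaja1, a J-domain protein of the cytosol, was at 519.8, 459 and 1376 CPM in tenocyte-like, 480.4, 458 and 1214 in epitenon-like, and 502, 527 and 813 in macrophage-like cells. Its ratios were 2.65 (2.60 to 2.69), 2.53 (2.45 to 2.60) and 1.62 (1.56 to 1.68). Both genes, like Hspd1, are made without stress and are also known to be raised by heat.

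Hspd1 and Hspe1 form the chaperonin of mitochondria. In tenocyte-like cells Hspd1 was at 137, 98.8 and 194 CPM, and Hspe1 at 149.5, 129 and 201. The ratios of Hspd1 were 1.42 (1.36 to 1.48), 1.57 (1.48 to 1.67) and 1.42 (1.31 to 1.54) in tenocyte-like, epitenon-like and macrophage-like cells, and those of Hspe1 were 1.35 (1.29 to 1.40), 1.33 (1.25 to 1.41) and 1.30 (1.21 to 1.41). Hsp90ab1, the constitutive Hsp90, differed less between libraries than Hspa8. It was at 1306, 1113 and 1485.5 CPM in tenocyte-like, 1472, 1416 and 1854 in epitenon-like, and 1779, 1521.5 and 1848 in macrophage-like cells, with ratios of 1.14 (1.12 to 1.15), 1.26 (1.24 to 1.28) and 1.04 (1.02 to 1.06). The remaining constitutive members, which were the Hsp110 protein Hspa4, the mitochondrial Hsp70 Hspa9, the J-domain proteins Dnaja2, Dnajb2, Dnajb6 and Dnajc7, the exchange factor Bag1, the adaptor Stip1 and the chaperonin subunits Cct2, Cct3 and Cct5, did not pass 1.5-fold in either direction between 21 M B6 and 6 M WT in these 3 classes.

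**Figure D2:**
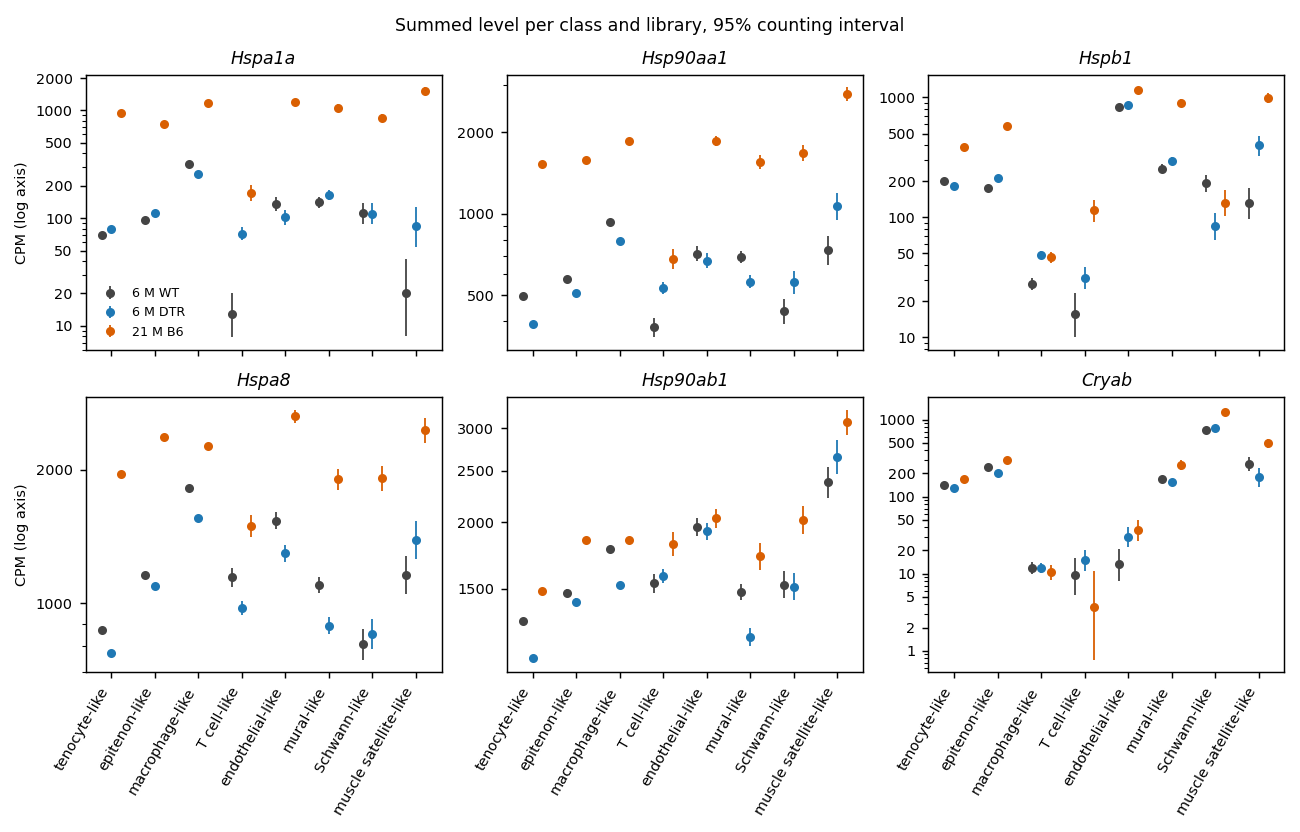
Level in CPM (log axis) of 6 members in 8 classes, each point the UMIs of all cells of a class in 1 library, with the 95% counting interval; grey is 6 M WT, blue 6 M DTR and orange 21 M B6. The orange Hspa1a and Hsp90aa1 points lie above both other libraries in every class, while Cryab and Hspb1 differ more between classes than between libraries.

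The balance of inducible and constitutive forms was read within a library, as the share of one gene in the UMIs of a related set, which does not depend on the scaling between libraries. Hspa1a and Hspa1b took 13.4% of the Hspa1a, Hspa1b and Hspa8 UMIs in tenocyte-like cells of 6 M WT (95% binomial interval 13.2% to 13.7%), 16.6% in 6 M DTR (16.3% to 17.0%) and 48.1% in 21 M B6 (47.7% to 48.6%). The same share was 17.9%, 20.5% and 40.996% in epitenon-like cells and 20.9%, 20.4% and 46.9% in macrophage-like cells. The inducible pair was therefore a minor part of these Hsp70 transcripts in the DT-injected libraries. In the aged one it was close to even with Hspa8 in tenocyte-like and macrophage-like cells, and at a smaller share in epitenon-like cells. Hsp90aa1 took 27.5%, 25.9% and 50.7% of Hsp90 UMIs in tenocyte-like, 28.1%, 26.5% and 45.9% in epitenon-like, and 34.3%, 34.3% and 50.2% in macrophage-like cells. Hsph1 of Hsph1 and Hspa4 went from 17.9% and 15.8% to 58.2% in tenocyte-like cells, from 22.2% and 19.8% to 64.4% in epitenon-like cells, and from 15.9% and 17.1% to 40.3% in macrophage-like cells. In T cell-like cells the balance differed less on the Hsp90 side, with Hsp90aa1 at 19.8%, 25.1% and 27.2%. There the Hsp70 share was 1.82%, 10.9% and 18.6%, the lowest of the 8 classes in each library.

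Within the near-identical pair itself the balance differed between the 3 largest classes. Hspa1a took 51.9%, 51.8% and 52.0% of the pair's UMIs in tenocyte-like cells. It took 38.3%, 39.5% and 45.6% in epitenon-like cells and 65.9%, 64.6% and 58.1% in macrophage-like cells. The 3 classes kept this order in every library and stood closer together in 21 M B6. Binomial intervals did not overlap between classes, but they take each UMI as independent and leave out the spread between cells and mice. Reads may also be split or lost between the genes of this pair.

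**Figure D3:**
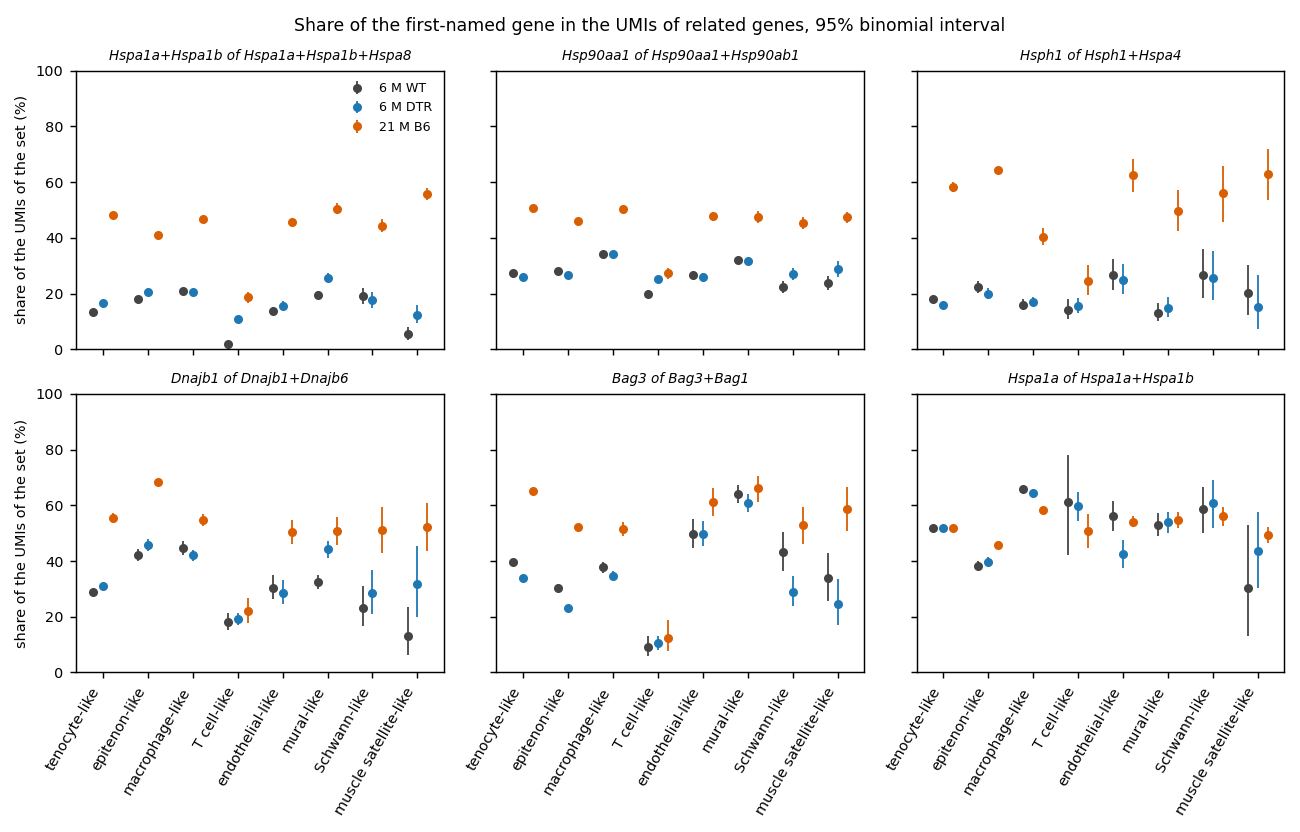
Share (%) of the first-named gene or genes in the UMIs of a related set, by class and library, with 95% binomial intervals; grey is 6 M WT, blue 6 M DTR and orange 21 M B6. For Hspa1a and Hspa1b against Hspa8, Hsp90aa1 against Hsp90ab1 and Hsph1 against Hspa4 the orange points lie highest in all 8 classes, whereas Hspa1a against Hspa1b orders the classes more than the libraries.

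Summed over the 11 heat-inducible members, the level ran from 749.5 CPM in T cell-like to 2297 CPM in endothelial-like cells of 6 M WT, from 1019 to 2250.0 CPM between the same classes of 6 M DTR, and from 1530.2 CPM in T cell-like to 7842 CPM in muscle satellite-like cells of 21 M B6. Their share of all member UMIs was 12.2% to 27.4%, 16.2% to 28.7% and 20.03% to 43.4% over the 8 classes. In tenocyte-like cells alone it was 20.3%, 21.2% and 39.4%. The 16 constitutive members summed to between 4297 CPM (tenocyte-like) and 6844 CPM (muscle satellite-like) in 6 M WT. Between the same classes the constitutive sum ran from 3655 to 7451 CPM in 6 M DTR. It ran from 6046 CPM in T cell-like to 9932 CPM in muscle satellite-like cells of 21 M B6. Both ends of this range were highest in 21 M B6.

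Across the 8 classes with ratios, which share 1 library per group and are not replicates, Hspa1a was higher in 21 M B6 than in 6 M WT by 3.65 to 75.9 times, Hspa1b by 5.09 to 34.2, Hsph1 by 2.06 to 5.87 and Hsp90aa1 by 1.79 to 3.84, each past 1.5-fold in 8 of 8. The lowest Hspa1a ratio was that of macrophage-like cells and the highest that of muscle satellite-like cells, which rested on 7 UMIs in 31 cells of 6 M WT against 624 in 43 cells of 21 M B6 (interval 36.6 to 190). Dnajb1 passed 1.5-fold in 7 of 8 classes, Dnaja1 in 7, Hspb1 and Hspa8 in 6, and Bag3 in 5. Hspa4l was below 1 in 8 of 8 classes, between 0.185 and 0.852, and past 1.5-fold in 5. The median ratio over all genes was also below 1 in each of these classes, between 0.745 (muscle satellite-like) and 0.944 (macrophage-like). The Hspa4l ratio of 0.852 was that of muscle satellite-like cells and lay above the median there. Hsp90ab1 lay between 1.04 and 1.32 and passed in 0 of 8.

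In the smaller classes the counts of members stood beside wider backgrounds. T cell-like cells had 5 of 32 members higher (background 8.46%) and 3 lower (29.8%); all 5 were heat-inducible. Endothelial-like cells had 10 of 33 higher (13.4%) and 6 lower (25.2%), and mural-like cells, which carry pericyte and smooth muscle markers, 12 of 35 higher (12.5%) and 4 lower (27.9%). Schwann-like cells had 16 of 34 higher (12.4%) and 1 lower (30.0%), and muscle satellite-like cells 14 of 33 higher (14.8%) and 6 lower (43.1%). Cryab in T cell-like, Hsf2 in mural-like, Hspb7 in Schwann-like and Hspb2 in muscle satellite-like cells reached 5 CPM in 1 library only. Their direction was therefore set by the limit. Among members at 5 CPM in both libraries, 2 of 31 were lower in T cell-like (22.2%) and 3 of 34 in mural-like cells (22%). On the same terms 15 of 33 were higher in Schwann-like (9.7%) and 13 of 32 in muscle satellite-like cells (12.6%). In endothelial-like cells the 6 lower members were Hspa4l, Hspa4, Hspa9, Dnaja2, Dnajb2 and Hsf2. Hspb1 was an exception to the common direction in Schwann-like cells, at 193, 84.9 and 133 CPM, with a ratio of 21 M B6 to 6 M WT of 0.688 (0.508 to 0.923). A Hspb1 UMI was held by 28.7%, 28.7% and 33.3% of these cells, and after thinning to 2000 UMIs by 20.2% (12.6% to 29.8%), 12% (6.36% to 20.02%) and 7.84% (2.18% to 18.9%). The order of these shares differed from that of the CPM, so no change is read from the ratio. Coch, a tenocyte-rich gene, stood there at 19.4%, 1.09% and 0.368% of its tenocyte-like level, highest in 6 M WT. The part of tenocyte RNA in the Hspb1 values was not tested. In mural-like cells Coch stood at 30.6%, 28.1% and 2.37% of that level and Col1a1, also tenocyte-rich, at 52.0%, 18.8% and 18.8%. The part of tenocyte RNA in the mural-like counts was not tested. In cells that met no gate (865, 743 and 1029 cells) Hspa1a was at 119, 118 and 1017 CPM.

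Tissue-restricted members were set apart by class. Cryab (alpha B-crystallin) was highest in myofibre-like cells (4624, 1323 and 3789 CPM, from 6, 12 and 5 cells) and next in Schwann-like cells (726, 786 and 1251 CPM, 1.72 times 6 M WT in 21 M B6, 1.54 to 1.94), and stood at 10.5 to 11.9 CPM in macrophage-like cells. Hspb6, Hspb7 and Hspb2, small heat shock proteins of muscle, were also highest in myofibre-like cells, at 383, 360.0 and 654 CPM for Hspb6, 887, 434 and 792 for Hspb7 and 311, 127 and 103 for Hspb2. Outside that class Hspb6 did not exceed 16.4 CPM in any class or library. Hspb8, the partner of Bag3, was highest among the larger classes in epitenon-like cells (182, 206 and 242 CPM, ratio 1.33, 1.26 to 1.40) and was past 1.5-fold in tenocyte-like cells (56.8, 63.7 and 87.7 CPM, ratio 1.54, 1.45 to 1.65). The tenocyte-like ratio was under 1.5-fold in 6 of 11 alternatives. In macrophage-like cells it was near the 5 CPM limit, at 4.59, 6.50 and 7.84 CPM.

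Hspa2, an Hsp70 best known from testis, was highest of the 8 classes in mural-like cells of 6 M WT and in Schwann-like cells of both other libraries. In Schwann-like cells it was at 69.6, 109 and 189 CPM, 2.72 (1.93 to 3.88) times 6 M WT in 21 M B6. In macrophage-like cells it was at 17.7, 23.3 and 32.1 CPM, a ratio of 1.81 (1.48 to 2.22). Hspb1, although heat-inducible, also had a class of its own: endothelial-like cells held 830, 866 and 1156 CPM, more than any other class in each library, with a ratio of 1.39 (1.29 to 1.51).

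The heat shock factors themselves were low. Hsf1, which switches on the inducible genes, was at 20.4, 21.9 and 21.7 CPM in tenocyte-like, 23.2, 25.3 and 19.98 in epitenon-like and 14.3, 17.1 and 13.8 in macrophage-like cells, and no pair of libraries differed by 1.5-fold in these classes. Hsf2 was at 6.89, 10.6 and 8.78 CPM in tenocyte-like cells and 13.4, 20.5 and 14.5 in epitenon-like cells. In both classes 6 M DTR was above 6 M WT, by 1.54 (1.35 to 1.75) and 1.53 (1.23 to 1.90), which lay close to the limit. The ratio was under 1.5-fold in 5 of 11 alternatives in tenocyte-like cells (log2 ratio 0.51 to 0.67) and in 6 of 11 in epitenon-like cells (0.37 to 0.70), among them the limit of 5% mitochondrial counts (0.55).

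The comparison of 6 M DTR with 6 M WT asks what DT depletion left behind in the remaining cells, both groups having had DT. In tenocyte-like cells 2 of 34 (5.88%) were 1.5-fold higher (background 7.6%), Hsf2 and Hspb2, and 2 were lower (5.71%), Stip1 and Cct3. Both shares were near those over all genes, so nothing about the members as a group is read from these counts. Hspb2 was at 9.43, 16.0 and 7.45 CPM, with 6 M DTR highest, a ratio to 6 M WT of 1.70 (1.52 to 1.89). Stip1, which links Hsp70 to Hsp90, was at 50.2, 33.1 and 64.1 CPM, lowest in 6 M DTR, at a ratio to 6 M WT of 0.660 (0.619 to 0.702), and Cct3, a subunit of the ring that folds actin and tubulin, was at 107, 64.8 and 109, a ratio of 0.605 (0.578 to 0.632). The Stip1 log2 ratio was -0.60, and -0.58 in cells called female, just under 1.5-fold. Tenocyte-like cells of the DT-injected libraries were spread differently over clusters. Cluster 7 held 2.54% of the 6 M WT cells in Leiden clusters named tenocyte-like (139 cells). It held 42.1% in 6 M DTR (1260 cells) and 9.45% in 21 M B6 (90 cells). Clusters 0 and 2 held most in 6 M WT (37.5% and 41.5%) and a further 13.7% and 28.6% in 6 M DTR. The part of this difference in the ratios was not tested.

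In epitenon-like cells 2 of 34 were higher (2.52%), Hsf2 and Hspb7, and 0 lower (4.73%), and the count of higher members was 0 with a limit of 5% mitochondrial counts, with stricter gates, with the mean of CPM over cells and without the deepest cells. Hspb7, at 3.31, 5.33 and 2.59 CPM, was compared only because 6 M DTR reached 5 CPM, so that its direction was set by the limit, which leaves Hsf2 among the 33 members at 5 CPM in both libraries. In macrophage-like cells 1 of 33 was higher (3.13%), Hspb1, and 0 lower (3.76%). The heat-inducible median log2 ratio was -0.14, 0.01 and -0.16 in the 3 classes, against -0.22, -0.06 and -0.16 for the constitutive group and 0.05, -0.01 and -0.02 for all genes. In tenocyte-like cells the heat-inducible median changed sign with the sex called from the cells, -0.30 in cells called male and 0.12 in cells called female.

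Larger ratios of Hspa1a and Hspa1b between the DT-injected libraries were seen in 2 small classes. In T cell-like cells Hspa1a was at 13.0, 71.9 and 173 CPM, from 19 UMIs in 134 cells of 6 M WT, and Hspa1b at 8.20, 48.5 and 168. A minority of cells carried these levels: after thinning to 2000 UMIs 3.73%, 3.99% and 7.69% of T cell-like cells (5, 13 and 6 cells) held a Hspa1a UMI, and the median cell held 1, 2 and 1 heat-inducible UMIs. Transcripts from tenocytes in the same droplets were measured by Coch and Col1a1, tenocyte-rich genes outside the lists that were chosen after the data were seen. In T cell-like cells Coch stood at 4.91%, 9.42% and 0.231% of its tenocyte-like level and Col1a1 at 9.5%, 7.68% and 0.635%, while Hspa1a stood at 18.5%, 89.8% and 18.3% of its own. The part of free RNA in the T cell-like values was not tested further. In muscle satellite-like cells Hspa1a had 7 UMIs in 6 M WT and 24 in 6 M DTR, a ratio of 4.24 (1.77 to 11.7).

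Set against 6 M DTR, which shared the 90 min digestion, 21 M B6 again stood apart in the heat-inducible group; the libraries of 21 M B6 and 6 M DTR both enter the comparisons above, so these values are no separate support for them. In tenocyte-like cells 15 of 34 members were higher (background 8.79%) and 2 lower (24.0%). Epitenon-like cells had 14 of 34 higher (7.01%) and 2 lower (13.6%), and macrophage-like cells 8 of 33 higher (9.65%) and 1 lower (9.92%). Hspa1a was 11.8 (11.3 to 12.3), 6.74 (6.36 to 7.14) and 4.52 (4.35 to 4.69) times 6 M DTR in the 3 classes, and Hsp90aa1 3.92 (3.84 to 4.00), 3.08 (3.00 to 3.17) and 2.35 (2.29 to 2.41). In tenocyte-like cells the Hspa1a log2 ratio was 3.56, and it was 4.03 in cells called male and 2.62 in cells called female. Members that passed 1.5-fold here but not against 6 M WT in tenocyte-like cells were Chordc1 (1.76, 1.60 to 1.94), Hspd1 (1.96, 1.87 to 2.06), Hspe1 (1.56, 1.49 to 1.63), Stip1 (1.94, 1.78 to 2.11), Cct3 (1.69, 1.58 to 1.80) and Hspa2 (1.55, 1.43 to 1.68). Hspa4l was lower in all 3 classes, at 0.596 (0.529 to 0.669), 0.493 (0.442 to 0.549) and 0.534 (0.451 to 0.629). Hspb2 in tenocyte-like cells (0.465, 0.374 to 0.575) and Hspb7 in epitenon-like cells (0.486, 0.337 to 0.702), the latter at 5 CPM in 6 M DTR only, were the other lower members, and Cryab was higher past 1.5-fold in epitenon-like cells, at 245, 201 and 303 CPM (1.51, 1.44 to 1.58), though under 1.5-fold in 6 of 11 alternatives. The heat-inducible median log2 ratio was 1.34, 1.40 and 0.74, and the constitutive one 0.42, 0.16 and 0.18, against -0.29, -0.25 and -0.07 for all genes.

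How the inducible transcripts were spread over cells was read after each cell was thinned to 2000 UMIs, so that depth was equal. The median tenocyte-like cell held 2, 2 and 5 heat-inducible UMIs in the 3 libraries, and the 95th percentiles were 6, 6 and 32. Cells above the 6 M WT 95th percentile were 3.97%, 2.96% and 36.7% (33.8% to 39.6%) of tenocyte-like cells. The higher level of 21 M B6 thus lay in part in a long upper tail, and the middle of the distribution was higher as well. The share above the matching percentile was 4.24%, 3.78% and 38.6% in epitenon-like, 5.01%, 3.72% and 32.9% in macrophage-like and 1.49%, 4.60% and 5.13% in T cell-like cells. For constitutive UMIs the same shares were 4.70%, 2.51% and 25.6% in tenocyte-like and 4.08%, 3.49% and 27.5% in epitenon-like cells. They were 4.84%, 2.13% and 10.2% in macrophage-like and 4.48%, 7.67% and 15.4% in T cell-like cells. An upper tail in 21 M B6 was thus not particular to the heat-inducible group. The 10% of tenocyte-like cells with the most heat-inducible UMIs held 28.8%, 29.2% and 42.6% of them. The top 10% by constitutive UMIs held 19.0%, 20.2% and 23.2%. Such a share is larger by counting error alone where cells hold few UMIs. The 6 M WT means were 2.37 heat-inducible and 8.43 constitutive UMIs per cell, so the groups are not compared within 6 M WT. The 21 M B6 heat-inducible mean was 8.77, near the 6 M WT constitutive mean, and the shares there were 42.6% and 19.0%. Tenocyte-like cells without any heat-inducible UMI in 2000 were 15.1%, 17.2% and 4.91%, and the highest cell held 24, 18 and 110.

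For Hspa1a alone, 11.6%, 13.0% and 39.4% of thinned tenocyte-like cells held a UMI (40.1%, 43.5% and 66.7% before thinning). The shares were 40.2%, 34.0% and 63.1% in macrophage-like cells. No class is known to lack the gene, so no class serves as a background for these shares. T cell-like cells had low shares, at 3.73%, 3.99% and 7.69%, but their Hspa1a level also differed between libraries (13.0, 71.9 and 173 CPM). Their median depths were 7970.5 to 10060 UMIs against 11390 to 12949 in tenocyte-like cells, which bears on shares before thinning only.

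**Figure D4:**
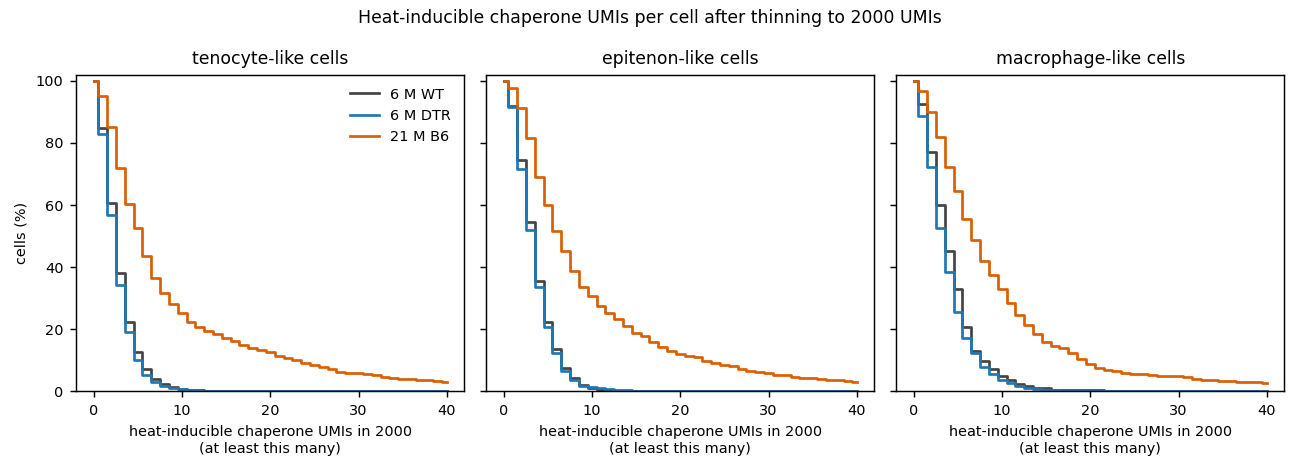
Share of cells (%) with at least the given number of heat-inducible chaperone UMIs, after thinning each cell to 2000 UMIs, in tenocyte-like, epitenon-like and macrophage-like cells; grey is 6 M WT, blue 6 M DTR and orange 21 M B6. The 6 M WT and 6 M DTR curves lie close together and the 21 M B6 curve runs further right, with 36.7% of tenocyte-like cells past the 6 M WT 95th percentile of 6 UMIs.

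In 21 M B6, tenocyte-like cells rich in inducible Hsp70 were also rich in Hsph1, Dnajb1, Hspb1, Hsp90aa1 and Hspa4l. The remaining heat-inducible members are not given along the ranking described next, and neither is a background over all genes. The rise of these genes is therefore not read as typical of the group or as particular to chaperones. The 21 M B6 cells of a class were ranked by the share of Hspa1a and Hspa1b in their UMIs and cut into 4 equal bins, of 275 tenocyte-like cells each, so that levels of these 2 genes along the ranking follow from it while those of other genes do not. From the lowest to the highest bin of tenocyte-like cells, Hsph1 went from 39.8 to 301 CPM, Dnajb1 from 42.1 to 251 and Hspb1 from 152 to 826. Hsp90aa1 went from 741 to 2969 CPM. Members of the constitutive group went in both directions along the ranking. Dnaja1 went from 701 to 2386 CPM, and Hspa8 from 1379 to 2929.8. Hsp90ab1 went from 1074 to 2217 CPM, Hspa4 from 101 to 81.6 and Cct2 from 168 to 131. Hspa4l, lower in 21 M B6 as a whole, went from 10.2 to 43.4 CPM with the others. Median depth was 12216 UMIs in the lowest bin and 11413 in the highest, and the median mitochondrial share 5.34% and 5.53%.

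In the same 2 bins of epitenon-like cells Hsph1 was at 44.5 and 449 CPM and Hspb1 at 153 and 1477. Macrophage-like cells had Hsph1 at 30.2 and 126 CPM and Hsp90aa1 at 1083 and 3189, while Hspb1 was at 19.8 and 60.2. Even the lowest bin of 21 M B6 tenocyte-like cells held Hsph1 at 39.8 CPM and Hspa8 at 1379 CPM. Both were above the 21.2 and 871 CPM of all 6 M WT tenocyte-like cells. Dnajb1 (42.1 against 49.1) and Hspb1 (152 against 200.1) were below all 6 M WT cells, but a lowest bin and a whole class are unlike sets. Against the lowest bin of 6 M WT, Dnajb1 (42.1 against 38.2) and Hsph1 (39.8 against 17.8) were both above. Hspa8 and Hspb1 are not given for that 6 M WT bin. In 6 M WT tenocyte-like cells, where the lowest bin held no Hspa1a or Hspa1b UMI, the same ranking took Hsph1 from 17.8 to 24.7 CPM and Dnajb1 from 38.2 to 69.1. Hspa1a had 5292 UMIs in the 5593 cells of 6 M WT, against 12797 in the 1100 cells of 21 M B6. The 6 M WT ranking is therefore coarser, and the rises along it are not compared between the libraries.

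**Figure D5:**
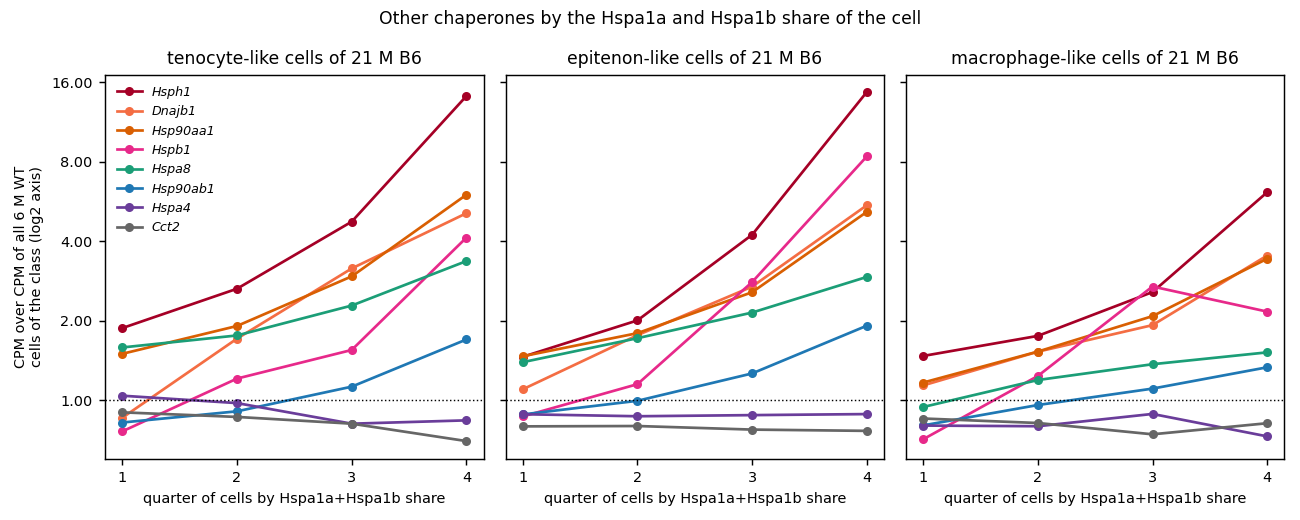
Level of 8 members, as CPM over the CPM of all 6 M WT cells of the class (log2 axis), in bins of 21 M B6 cells ranked from 1 (lowest) to 4 (highest) by the share of Hspa1a and Hspa1b in their UMIs; the dotted line is the 6 M WT level. Hsph1, Dnajb1 and Hsp90aa1 climb with the bin in all 3 classes, while Hspa4 and Cct2 stay near or below the line.

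Genes outside the members were taken from lists and counted. A list of 30 other folding genes, most of them cytosolic, held the remaining chaperonin and prefoldin subunits. In 21 M B6 against 6 M WT tenocyte-like cells, 0 of 29 compared were 1.5-fold higher and 2 lower. The counts were 0 of 30 and 0 in epitenon-like, and 0 of 29 and 1 in macrophage-like cells. The median log2 ratios were -0.17, -0.07 and -0.14. The largest ratios up were St13 (1.17) and Ppid (1.15) in tenocyte-like cells. The 18 endoplasmic reticulum stress genes had medians of -0.25, -0.27 and -0.15, with 2 higher and 3 lower, 0 and 3, and 2 and 2. Over all genes 7.15% were higher and 13.7% lower in tenocyte-like, 4.56% and 10.8% in epitenon-like, and 9.22% and 10.7% in macrophage-like cells, and nothing is read from counts this small. The heat-inducible median was above the medians of both lists and of all genes in each of these classes.

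Immediate early genes, which are switched on within minutes of stress or tissue handling, stood higher together with the heat-inducible members in 2 of the 3 classes. Of 19 such genes, 12 were higher and 0 lower in 21 M B6 than in 6 M WT tenocyte-like cells (median log2 ratio 0.96, with 7.15% and 13.7% over all genes), and 10 higher and 0 lower in epitenon-like cells (0.64, with 4.56% and 10.8%). In macrophage-like cells 0 were higher and 7 lower (-0.23, with 9.22% and 10.7%), while Hspa1a there was 3.65 times 6 M WT. Their summed level was 10635, 14839.6 and 19057 CPM in tenocyte-like cells, 14927.5, 16996 and 21815 in epitenon-like, and 16092.5, 17655 and 13778 in macrophage-like cells. Along the ranking by Hspa1a and Hspa1b the sum went from 9818 to 29528 CPM in 21 M B6 tenocyte-like cells and from 10120.5 to 18796.5 in macrophage-like cells. The part of tissue handling in the chaperone levels was not tested.

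The mitochondrial share was higher in 21 M B6, and Hspa1a was therefore read within bins of it, with mitochondrial counts left out of the total. In tenocyte-like cells with up to 5% and with 5% to 10% mitochondrial counts Hspa1a was at 71.8 and 78.5 CPM in 6 M WT, 82.4 and 82.5 in 6 M DTR, and 966 and 1029 in 21 M B6. In epitenon-like cells of 21 M B6 it was at 774 and 809 CPM. In macrophage-like cells the bins differed more, at 318 and 468 CPM in 6 M WT, 266 and 263 in 6 M DTR, and 919.7 and 1439 in 21 M B6. Within each bin of these 3 classes 21 M B6 was above both other libraries.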

How the data were processed

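Cells of FDL tendons were profiled by droplet 3′ single-cell RNA sequencing in 3 libraries, 1 per group and each from 16 pooled tendons. The authors deposited 1 matrix of UMI counts per library, raw and not normalized. The matrix headers name Cell Ranger 6.0.1 and the submitters' processing notes Cell Ranger 2.1.1, and no genome build is named in what was read here. Whole-library depth was 92707026 to 148149903 UMIs. The study's limits on barcodes were applied: between 1000 and 5000 genes, and no more than 10% mitochondrial counts.

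Cells were placed in 9 classes by gates of 3 or more markers and at least 5 marker UMIs per 10000 (100 for myofibre); tenocyte-like and epitenon-like cells also needed at least 2 times the other's marker UMIs. The UMI minimums were set after a first gating had been seen. No doublet caller was run, and cells in more than 1 class were left out of the classes as mixed. Counts were summed per class and library and given as CPM. Ratios were formed for the 8 classes with at least 25 cells per library, with exact conditional binomial 95% intervals, over genes at 5 CPM or more in 1 of the libraries compared. With 1 library per group no test between groups was possible and no p-value is given. A gene was counted as higher or lower past 1.5-fold. The study's test, which takes cells as replicates, was not used. Python 3.11.15, scanpy 1.11.5, pandas 2.3.3, scipy 1.17.1, numpy 2.4.6 and edgeR 4.0.16 (for TMM factors, in R 4.3.3) were used, and the ratio code was tested on simulated data.

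The members and lists were chosen with earlier results of these data known. All 35 members were accounted for. Full values were given for the heat-inducible group, Hspa8, Hsp90ab1, Hspd1, Hspe1, tissue-restricted members where highest, and other members past 1.5-fold in the 3 main classes. Other genes entered as list counts, medians and their largest ratios. Of 4 haemoglobin genes, a mark of blood carried over, 0 were 1.5-fold higher in 21 M B6 against the 6 M WT level in the 3 main classes, and 4 were lower in epitenon-like cells. Alternatives changed the mitochondrial and gene limits, the gates, the scaling, the averaging over cells, the deepest cells, the sex called from Xist and Y genes, the low-value filter, the fold and the thinning depth.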

Additional observations from a re-analysis of the deposited data

Results flagged for a closer look

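Barcodes over 10% mitochondrial counts entered none of the comparisons above (those up to 20% entered 1 alternative), and Hspa1a was above the 6 M WT level there too in the 21 M B6 library. The 204 such tenocyte-like barcodes of 21 M B6 held Hspa1a at 612 CPM, against 84.2 CPM in 45 barcodes of 6 M WT and 54.6 in 67 of 6 M DTR. In epitenon-like barcodes it was at 724 CPM in 101 of 21 M B6, with 0 UMIs in 5 of 6 M WT and 17.99 CPM in 9 of 6 M DTR. In macrophage-like barcodes it was at 1436 CPM in 64 of 21 M B6, 122 in 22 of 6 M WT and 137 in 40 of 6 M DTR.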

How the results depend on the processing

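No paired analysis was possible because each group was 1 library. Over 12 alternatives the heat-inducible median log2 ratio of 21 M B6 to 6 M WT ran from 1.11 to 1.38 in tenocyte-like, 1.33 to 1.72 in epitenon-like and 0.48 to 0.97 in macrophage-like cells. In macrophage-like cells the ends of that range were cells called male (0.48) and cells called female (0.97). Against 6 M DTR the heat-inducible median ran from 1.11 to 1.64, 1.13 to 1.67 and 0.57 to 0.94. The 1.11 and 1.13 against 6 M DTR were of cells called female, and the 0.94 was of cells called male. The 0.57 was of cells with at most 5% mitochondrial counts. The constitutive median of 21 M B6 to 6 M WT took both signs in tenocyte-like (-0.04 to 0.22) and epitenon-like cells (-0.14 to 0.19). The tenocyte-like Hspa1a log2 ratio of 6 M DTR to 6 M WT was -0.30 in cells called male and 0.61 in cells called female, and that of 21 M B6 to 6 M DTR was 4.03 and 2.62. At 2-fold, the members higher in 21 M B6 than in 6 M DTR numbered 9 in tenocyte-like, 9 in epitenon-like and 5 in macrophage-like cells, and 4 were higher than in 6 M WT in macrophage-like cells. With TMM factors 16 were higher than in 6 M WT in epitenon-like cells, at 1.5-fold. TMM scaling also lifted the typical gene of that comparison, from a log2 value of -0.25 to 0.03. Shares of all genes are not given at 2-fold or under TMM scaling, so the counts for these settings have no background to be judged by. Members past 1.5-fold kept their direction in every alternative that gave a value, in 9 of 9 comparisons of the 3 main classes. Depth limited the smaller classes most: at 31 to 43 muscle satellite-like cells per library, ratios rested on few UMIs.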
